A study of Homo sapiens with 9 samples.

Results

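The RNA exosome subunits EXOSC1 to EXOSC10 were examined in RNA-sequencing counts from MOLM13 cells, a human acute myeloid leukemia line of monocytic character. They were taken by symbol, which gave 10 of the 30017 genes in the count table, and all 10 passed the filter on low counts that left 12712 genes. The study lowered DDX41, which codes for an RNA helicase of the DEAD-box family. A GFP-marked lentivirus delivered a short hairpin RNA, whose processed strand lowers the mRNA that it pairs with, and the transduced cells were sorted on day 4. Libraries A, B and D were made for each of 3 groups, which were the control hairpin sh-Control and the hairpins shDDX41 #1 and shDDX41 #2. All 9 libraries thus came from 1 cell line that had received a virus and a sort, and what the control hairpin targets was not given in the sources used here.

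The exosome is the main machine that degrades RNA from its 3' end in the nucleus and the cytosol. It trims precursors of ribosomal, small nuclear and small nucleolar RNA, removes promoter upstream and other short-lived transcripts, and turns over mRNA. EXOSC4 to EXOSC9 form a ring and EXOSC1 to EXOSC3 a cap on it, and together they make a barrel through which RNA is threaded. The human barrel has no catalytic activity of its own, and the cutting is done by ribonucleases bound to it, which are DIS3 and EXOSC10 in the nucleus and DIS3L in the cytosol. Helicases and adaptors such as MTREX in the nucleus and the Ski complex in the cytosol feed RNA into the barrel.

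The libraries held 16385238 to 20510032 counts, of which each member took 326 to 2853. Levels are in CPM, a gene's count as a share of its library's total, with the totals scaled by TMM factors. DDX41 ranged from 113 to 117 CPM in sh-Control, from 9.95 to 12.9 CPM with shDDX41 #1 and from 38.9 to 42.5 CPM with shDDX41 #2. Its log2 fold changes were -3.29 and -1.51 (edgeR's quasi-likelihood test, Benjamini-Hochberg adjusted p = 4.10e-12 and 7.04e-09). The 7 markers checked for the line (PTPRC, CD33, FLT3, SPI1, LYZ, HOXA9 and MEIS1) were all present, from 34.6 CPM upward. Their summed level was 1930 to 2009 CPM in the controls, 1945 to 1981 CPM with shDDX41 #1 and 2826 to 2855 CPM with shDDX41 #2. LYZ, the lysozyme of monocytes, was at 931 CPM in sh-Control and 1818 CPM with shDDX41 #2. Among markers of T, B, epithelial and stromal cells, CD3E, MS4A1, EPCAM and COL1A1 stayed at or below 0.69 CPM, CD3D at or below 2.06 CPM, and KRT18 lay between 13.2 and 17.6 CPM. Library D of shDDX41 #1 stood apart from libraries A and B of its group, with a chi-square per degree of freedom of 18.0 and 19.7 against 2.94 between A and B. The same value was 8.23 to 10.4 within sh-Control and 2.47 to 3.30 within shDDX41 #2. The members' results with shDDX41 #1 are therefore also given without library D. The study's methods describe quantified assays in general as run in biological replicates. The labels do not say whether these libraries came from separate cultures, so p-values measure the spread between these libraries, which may be technical.

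Of the 10 exosome subunits, 3 were lower than sh-Control with both hairpins, where 5.82% of all tested genes were. With shDDX41 #1, 8 of the 10 passed the test at an adjusted p under 0.05, where 47.8% of all tested genes did. EXOSC1, EXOSC2, EXOSC5, EXOSC8, EXOSC9 and EXOSC10 were lower (6 of 10, against 24.1% of all genes) and EXOSC6 and EXOSC7 were higher (2 of 10, against 23.7%). With shDDX41 #2, 5 of the 10 passed, where 25.0% of all genes did, and EXOSC2, EXOSC3, EXOSC4, EXOSC8 and EXOSC10 were all lower (5 of 10, against 13.4%). EXOSC2, EXOSC8 and EXOSC10 were thus lower with both hairpins (3 of 10, against 5.82%), and 0 of 10 were higher with both, against 5.37% of all genes. No member was called higher with shDDX41 #2 by edgeR, by the DESeq2 Wald test or by limma voom, and none had an unadjusted p under 0.05 in that direction. Both comparisons use the same 3 sh-Control libraries.

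The median log2 fold change of the members was -0.24 with shDDX41 #1 and -0.22 with shDDX41 #2, beside 0.01 and -0.01 over all tested genes. The summed level of the 10 members was 754 ± 22.6 CPM (SD, n = 3) in sh-Control, 639 ± 30.8 CPM with shDDX41 #1 and 607 ± 17.7 CPM with shDDX41 #2. It lay between 731 and 776 CPM in the sh-Control libraries and between 596 and 671 CPM in the 6 libraries with a hairpin against DDX41, so the ranges did not overlap. The sum weighs abundant members most, and EXOSC8 and EXOSC10 had the largest drops in mean CPM. They went from 117 and 151 CPM in sh-Control to 68.5 and 117 CPM with shDDX41 #1. With shDDX41 #2 they were at 90.7 and 87.6 CPM. EXOSC6 and EXOSC7 were higher with shDDX41 #1, so the sum does not describe each member. In bulk RNA, less RNA per cell and fewer cells that express a gene cannot be told apart. The shDDX41 #1 counts depended on the scaling. With upper quartile factors 3 members instead of 6 were lower (EXOSC2, EXOSC8 and EXOSC10) and the share of higher genes among all calls went from 49.5% to 61.1%. Without library D of shDDX41 #1, 7 members were lower and 2 higher with that hairpin, and with shDDX41 #2 the counts stayed at 5 and 0.

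**Figure D1:**
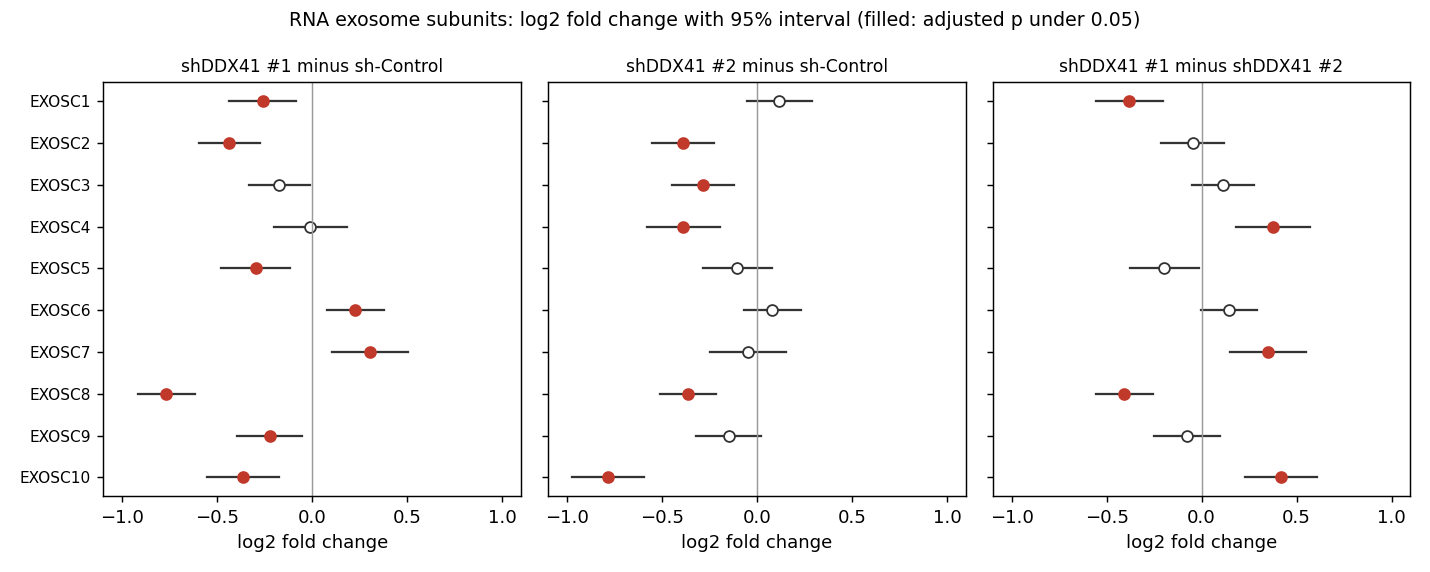
Log2 fold change (x axis) of each exosome subunit (y axis) for shDDX41 #1 minus sh-Control, shDDX41 #2 minus sh-Control and shDDX41 #1 minus shDDX41 #2. Points are edgeR estimates, lines are 95% intervals, and filled points have an adjusted p under 0.05. EXOSC8 reached -0.77 with shDDX41 #1 and EXOSC10 -0.78 with shDDX41 #2, and 5 members were filled between the hairpins.

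The promoters of the 3 members that were lower with both hairpins are shown because these genes shared that direction against sh-Control, though not its size. They are 300 bases long, from 250 before to 50 after the RefSeq transcription start, on GRCh38.p14, written 5' to 3' on the strand of the gene. EXOSC8 is at chr13:37000536-37000835 (+), EXOSC10 at chr1:11099820-11100119 (-) and EXOSC2 at chr9:130693510-130693809 (+). The RefSeq starts of all 3 lie inside the spans that GENCODE gives these genes, and that of EXOSC8 lies furthest in. Capitals mark matches, on either strand, to the letters AAGATGGC (YY1), GCATGCG (NRF1) and CCAAT (NF-Y).
EXOSC8: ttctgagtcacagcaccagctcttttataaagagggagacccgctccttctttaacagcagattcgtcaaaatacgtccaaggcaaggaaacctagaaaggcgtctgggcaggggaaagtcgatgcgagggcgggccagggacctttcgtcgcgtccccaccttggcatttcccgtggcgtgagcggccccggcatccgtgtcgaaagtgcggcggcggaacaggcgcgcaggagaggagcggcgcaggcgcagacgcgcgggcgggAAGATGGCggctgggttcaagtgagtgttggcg
EXOSC10: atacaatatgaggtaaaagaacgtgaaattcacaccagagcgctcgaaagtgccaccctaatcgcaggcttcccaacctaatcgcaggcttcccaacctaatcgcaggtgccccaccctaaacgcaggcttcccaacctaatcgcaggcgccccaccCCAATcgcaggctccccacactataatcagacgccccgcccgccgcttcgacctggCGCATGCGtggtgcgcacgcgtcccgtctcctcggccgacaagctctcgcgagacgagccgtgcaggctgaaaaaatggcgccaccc
EXOSC2: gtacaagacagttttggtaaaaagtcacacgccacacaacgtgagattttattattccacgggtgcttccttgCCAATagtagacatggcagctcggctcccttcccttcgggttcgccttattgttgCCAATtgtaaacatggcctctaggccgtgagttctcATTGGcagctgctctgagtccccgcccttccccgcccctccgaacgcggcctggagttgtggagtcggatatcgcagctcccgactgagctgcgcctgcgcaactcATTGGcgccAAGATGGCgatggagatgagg
AAGATGGC stood 18 to 25 bases after the start in EXOSC8 and 30 to 37 bases after it in EXOSC2, and 2.9% of the 35116 promoters of this length in the table hold it. EXOSC10 had no such match, and carried GCATGCG on both strands over the same stretch 37 to 30 bases before the start, letters that 3.9% of promoters hold. CCAAT was found 4 times in EXOSC2, at 1 place in EXOSC10 and not in EXOSC8. EXOSC5 and EXOSC9 also held it, so 4 of the 8 members searched did, against 34.6% of all promoters. No other member searched held AAGATGGC or GCATGCG. No member promoter held the E2F letters searched (TTTCCCGC, TTTGGCGC, TTTCGCGC or TTTGCCGC), which 3.3% of promoters hold. Of the 8 members with a promoter in the table, 3 held CGGAAG (ETS; EXOSC3, EXOSC5 and EXOSC6; 19.5% of promoters), 1 held CACGTG (E-box; EXOSC5; 7.3%) and 7 held GGGCGG (GC-box; all but EXOSC9; 45.0%), which was left in lower case. EXOSC1 and EXOSC4 had no promoter in the table and were not searched for any of these letters. Such matches describe the letters and are not evidence of binding.

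Levels of different members were compared per length, as CPM per kb of annotated exon (GENCODE 29). In sh-Control, EXOSC4 at 98.7 ± 5.95 and EXOSC8 at 97.3 ± 6.28 CPM per kb (SD, n = 3) were the most abundant and did not differ beyond their spread. EXOSC5 followed at 62.9 ± 6.02, with EXOSC7 at 53.7 ± 5.75 and EXOSC10 at 53.7 ± 4.05 CPM per kb, and these neighbours also lay within their spread. EXOSC9 (37.7 ± 3.31), EXOSC3 (37.0 ± 1.07) and EXOSC2 (34.4 ± 2.47 CPM per kb) could not be ordered. EXOSC1 at 26.1 ± 1.53 and EXOSC6 at 8.29 ± 0.284 CPM per kb were the least abundant and stood clear of the others. The annotated exon of EXOSC6 is 5.15 kb long in 1 block, and which part of it these cells transcribe was not measured, so its level per kb may be understated. With shDDX41 #1, EXOSC8 (57.2 ± 2.86 CPM per kb) no longer stood beside EXOSC4 (98.0 ± 12.5) and was at the level of EXOSC7 (66.4 ± 8.20) and EXOSC5 (51.1 ± 5.53). With shDDX41 #2, EXOSC4 (75.5 ± 6.07) and EXOSC8 (75.7 ± 3.80 CPM per kb) were again level, and EXOSC10 (31.2 ± 1.96) came down to that of EXOSC3 (30.4 ± 1.36 CPM per kb).

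**Figure D2:**
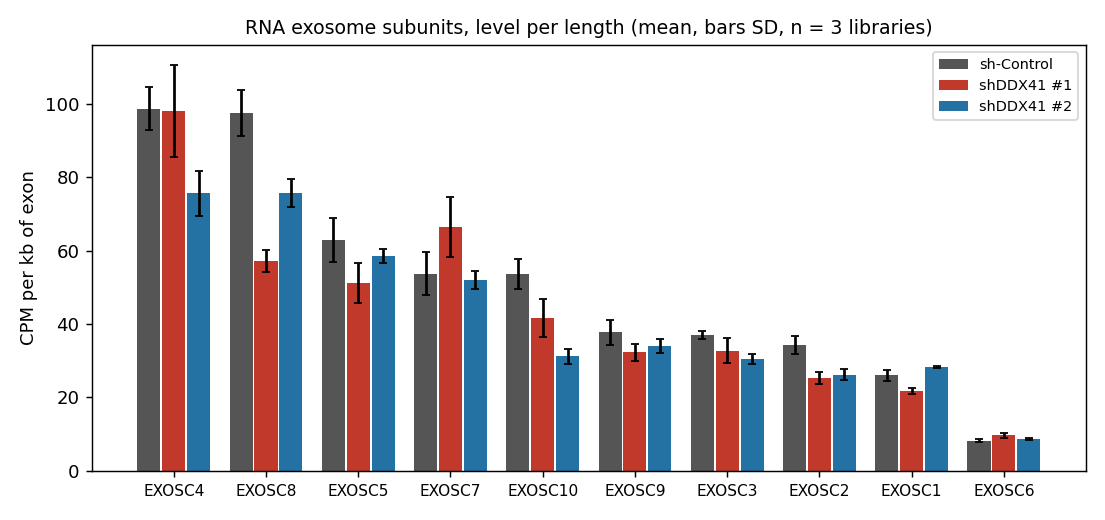
Level per length in CPM per kb of annotated exon (y axis, bars start at 0) for the 10 exosome subunits in order of their sh-Control level, by group. Bars are means and whiskers the SD of 3 libraries. EXOSC8 fell from 97.3 in sh-Control to 57.2 with shDDX41 #1, while EXOSC4 was at 98.7 and 98.0.

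The cap subunits EXOSC1, EXOSC2 and EXOSC3 carry S1 RNA-binding domains and guide RNA to the mouth of the barrel. EXOSC2 (chr9:130693721-130704894, + strand, GRCh38) was lower with both hairpins. It was at 65.9, 71.7 and 76.1 CPM in libraries A, B and D of sh-Control, at 48.9, 53.6 and 55.4 CPM with shDDX41 #1, and at 55.2, 57.0 and 50.8 CPM with shDDX41 #2. All 6 knockdown libraries were below all 3 controls. The log2 fold change, given with its SE, was -0.44 ± 0.0763 (adjusted p = 2.75e-04) with shDDX41 #1 and -0.39 ± 0.0758 (adjusted p = 0.00180) with shDDX41 #2. EXOSC2 thus fell by 26.1% and fell by 23.7%. Between the hairpins the difference was -0.05 (95% interval -0.21 to 0.12; adjusted p = 0.644). Without library D of shDDX41 #1 its log2 fold change with that hairpin was -0.46. EXOSC2 is the only cap subunit that was called with both hairpins.

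EXOSC3 (chr9:37766978-37801437, - strand), mutated in a pontocerebellar hypoplasia, was lower with shDDX41 #2. Its CPM were 65.2, 66.9 and 69.0 in sh-Control and 54.1, 53.3 and 57.9 with shDDX41 #2, without overlap. Its log2 fold change was -0.28 ± 0.0759 (adjusted p = 0.0130), a call lost without library A or B of shDDX41 #2 (adjusted p = 0.0546 and 0.0655). With shDDX41 #1 it was at 55.3, 56.7 and 66.4 CPM, and only library D reached into the control range. The log2 fold change was -0.17 (95% interval -0.34 to -0.01; adjusted p = 0.0720), and without library D it was -0.25 and passed (adjusted p = 0.00482). It also passed with library size as the only scaling (-0.19, adjusted p = 0.0436). The hairpins differed by 0.11 (95% interval -0.05 to 0.27; adjusted p = 0.248).

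EXOSC1 (chr10:97436142-97446017, - strand), the remaining cap subunit, differed between the hairpins. It was at 23.6, 22.9 and 25.6 CPM in sh-Control, 19.6, 19.6 and 21.0 CPM with shDDX41 #1, and 26.3, 26.3 and 25.8 CPM with shDDX41 #2. The shDDX41 #1 libraries were below, and the shDDX41 #2 libraries above, all controls. With shDDX41 #1 the log2 fold change was -0.26 ± 0.0823 (adjusted p = 0.0162), and with shDDX41 #2 it was 0.12 (95% interval -0.05 to 0.29; adjusted p = 0.310). The hairpins differed by -0.38 ± 0.0819 (adjusted p = 0.00139). The shDDX41 #1 call was lost with upper quartile factors (-0.19, adjusted p = 0.0757) and without sh-Control D, shDDX41 #1 A or shDDX41 #1 B (adjusted p = 0.0728, 0.0558 and 0.0526), and the difference between the hairpins held in each of these. Without shDDX41 #1 D, the values were -0.28 (adjusted p = 0.0151) with that hairpin and -0.41 between the hairpins.

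**Figure D3:**
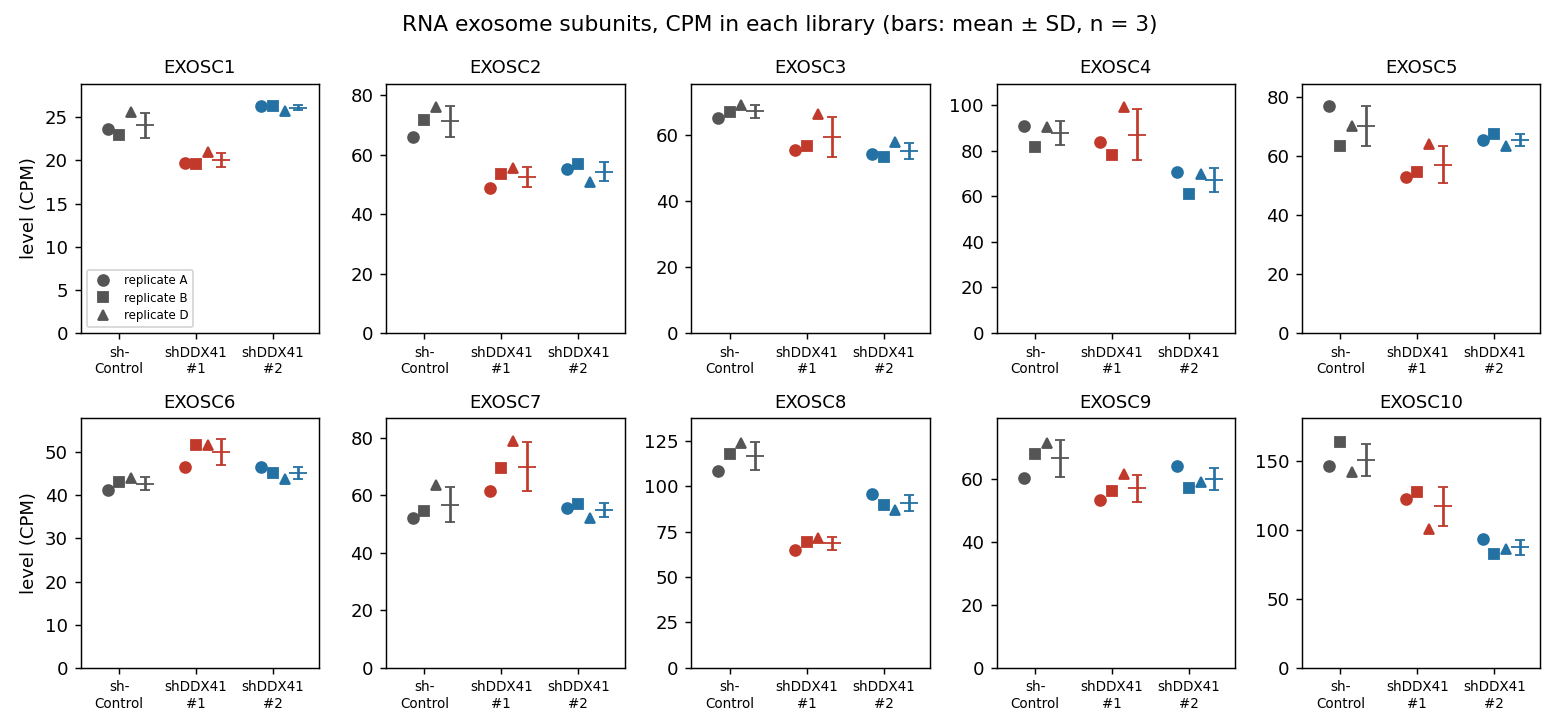
Level in CPM (y axis, from 0) of each exosome subunit in the 3 groups (x axis). Symbols are the libraries A, B and D, and bars beside them the mean and SD of 3 libraries. All EXOSC2, EXOSC8 and EXOSC10 knockdown libraries lie below the sh-Control libraries.

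The ring subunits EXOSC4 to EXOSC9 share the fold of bacterial RNase PH and pair into a hexamer. EXOSC8 (chr13:36998816-37009613, + strand) changed most among them with shDDX41 #1. It was at 109, 118 and 123 CPM in sh-Control, 64.8, 69.0 and 71.6 CPM with shDDX41 #1, and 95.7, 89.4 and 86.9 CPM with shDDX41 #2. The 3 groups did not overlap, and those with shDDX41 #1 were lowest. The log2 fold change was -0.77 ± 0.0711 (adjusted p = 6.43e-07) with shDDX41 #1 and -0.36 ± 0.0700 (adjusted p = 0.00171) with shDDX41 #2. EXOSC8 thus fell by 41.3% with the first hairpin and fell by 22.2% with the second. The hairpins differed by -0.41 ± 0.0713 (adjusted p = 2.68e-04). Without shDDX41 #1 D, the values were -0.79, -0.35 and -0.44. EXOSC8 shares 86 bases of exon, 7.18% of its length, with SUPT20H on the other strand, whose log2 fold changes were -0.12 and -0.15 (adjusted p = 0.253 and 0.185).

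EXOSC4 (chr8:144078626-144080647, + strand) was called lower with shDDX41 #2 and was not called with shDDX41 #1. It was at 90.7, 81.4 and 90.4 CPM in sh-Control and at 70.5, 60.8 and 69.8 CPM with shDDX41 #2, without overlap. On the log2 scale the change was -0.39 ± 0.0906 (adjusted p = 0.00618). With shDDX41 #1 the CPM were 83.7, 77.9 and 99.3, which overlapped the controls, and the log2 fold change was -0.01 (95% interval -0.20 to 0.18; adjusted p = 0.939). The sign of that value turned to 0.066 with upper quartile factors. Between the hairpins the difference was 0.38 ± 0.0908 (adjusted p = 0.00310), and 0.27 (adjusted p = 0.00660) without shDDX41 #1 D, the highest of the 9 libraries.

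EXOSC7 (chr3:44975241-45036066, + strand) and EXOSC6 (chr16:70246778-70251930, - strand) were the members called higher with shDDX41 #1. EXOSC7 was at 52.0, 54.5 and 63.6 CPM in sh-Control, 61.7, 69.4 and 79.0 CPM with shDDX41 #1, and 55.7, 57.1 and 52.1 CPM with shDDX41 #2. The first hairpin's range overlapped that of the controls. EXOSC7 changed on the log2 scale by 0.30 ± 0.0934 (adjusted p = 0.0143) with shDDX41 #1 and -0.05 (95% interval -0.25 to 0.16; adjusted p = 0.765) with shDDX41 #2, and the hairpins differed by 0.35 ± 0.0935 (adjusted p = 0.00625). The sign of the shDDX41 #2 value turned without sh-Control D (0.044). EXOSC6 was at 41.1, 43.0 and 44.0 CPM in sh-Control, 46.5, 51.8 and 51.6 CPM with shDDX41 #1, and 46.6, 45.1 and 43.8 CPM with shDDX41 #2. Its shDDX41 #1 libraries lay above all controls, with a log2 fold change of 0.23 ± 0.0702 (adjusted p = 0.0154), and with shDDX41 #2 it was 0.08 (95% interval -0.07 to 0.23; adjusted p = 0.436). The hairpins differed by 0.15 (95% interval -0.0035 to 0.29; adjusted p = 0.0981). Without sh-Control A the log2 fold changes with shDDX41 #1 were 0.24 for EXOSC7 and 0.20 for EXOSC6, and neither passed (adjusted p = 0.0692 and 0.0508). Without shDDX41 #1 D they were 0.22 and 0.21. The difference between the hairpins in EXOSC7 was then 0.26 (adjusted p = 0.0155).

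EXOSC5 (chr19:41386374-41397479, - strand) and EXOSC9 (chr4:121801317-121817021, + strand) were lower with shDDX41 #1 with overlapping groups. EXOSC5 was at 77.0, 63.5 and 70.4 CPM in sh-Control, 52.8, 54.5 and 64.2 CPM with shDDX41 #1, and 65.3, 67.5 and 63.4 CPM with shDDX41 #2. Its log2 fold change was -0.30 ± 0.0861 (adjusted p = 0.00995) with shDDX41 #1 and -0.10 (95% interval -0.29 to 0.08; adjusted p = 0.404) with shDDX41 #2. The call was lost without sh-Control A or shDDX41 #1 A (adjusted p = 0.0522 and 0.0555) and at the edge of the threshold with upper quartile factors, and without shDDX41 #1 D the value was -0.38 (adjusted p = 5.92e-04). Between the hairpins EXOSC5 differed by -0.19 (95% interval -0.38 to -0.01; adjusted p = 0.0739), which passed without shDDX41 #1 D (-0.28, adjusted p = 0.00571).

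EXOSC9, an autoantigen in scleroderma overlap syndromes, was at 60.3, 68.1 and 71.7 CPM in sh-Control, 53.5, 56.2 and 61.7 CPM with shDDX41 #1, and 64.1, 57.3 and 59.2 CPM with shDDX41 #2. Only sh-Control A fell among the knockdown libraries. EXOSC9 changed by -0.22 ± 0.0808 (adjusted p = 0.0322) with shDDX41 #1 and -0.15 (95% interval -0.32 to 0.02; adjusted p = 0.195) with shDDX41 #2. It was the least stable call of the 10. It was lost in 7 of 19 alternatives, among them upper quartile factors (-0.15, adjusted p = 0.144) and leaving out library B or D of sh-Control (adjusted p = 0.0847 and 0.128) or library A or B of shDDX41 #1 (adjusted p = 0.130 and 0.0837). Without shDDX41 #1 D it was -0.27 (adjusted p = 0.00763). The hairpins differed by -0.08 (95% interval -0.25 to 0.10; adjusted p = 0.464). EXOSC9 also shares 144 bases of exon, 8.14% of its length, with the cyclin gene CCNA2 on the other strand. CCNA2 fell by 0.79 on the log2 scale with shDDX41 #1 (adjusted p = 3.43e-07) and had a log2 fold change of -0.12 with shDDX41 #2 (adjusted p = 0.227). Whether reads were counted by strand was not given in the sources used here, so reads of the shared stretch cannot be told apart.

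EXOSC10 (chr1:11066618-11099881, - strand) is the nuclear 3' to 5' exoribonuclease that joins the barrel, found mainly in the nucleolus and known for trimming ribosomal and small nucleolar RNA. It was at 147, 164 and 142 CPM in sh-Control, 123, 128 and 101 CPM with shDDX41 #1, and 93.6, 82.7 and 86.5 CPM with shDDX41 #2. The 3 groups did not overlap, and those with shDDX41 #2 were lowest, the reverse of the order in EXOSC8. The log2 fold change was -0.36 ± 0.0884 (adjusted p = 0.00335) with shDDX41 #1 and -0.78 ± 0.0891 (adjusted p = 2.19e-05) with shDDX41 #2. EXOSC10 thus fell by 22.3% with the first hairpin and fell by 41.9% with the second. The hairpins differed by 0.42 ± 0.0895 (adjusted p = 0.00127). Without shDDX41 #1 D, its log2 fold change with that hairpin was -0.26 (adjusted p = 0.00630) and the difference between the hairpins 0.52. DDX41 itself was lower with shDDX41 #1 than with shDDX41 #2 by 1.79 on the log2 scale. Between the hairpins, EXOSC10 was lower with the one that left more DDX41 mRNA, and EXOSC8 with the one that left less. DDX41, EXOSC8 and EXOSC10 were all highest in sh-Control. The hairpins differ in sequence and in depth of knockdown, which cannot be told apart here.

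Between the hairpins, 5 of the 10 members passed the test, where 48.8% of all genes did. EXOSC4, EXOSC7 and EXOSC10 were higher, and EXOSC1 and EXOSC8 lower, with shDDX41 #1 than with shDDX41 #2 (24.6% and 24.2% of all genes). The members' median difference was 0.03, beside 0.01 over all tested genes. The groups did not overlap in CPM for 5 members with shDDX41 #1 against sh-Control, 6 with shDDX41 #2 against sh-Control and 5 between the hairpins, beside 53.1%, 43.8% and 57.7% of all genes. With shDDX41 #2 the members' share, 6 of 10, lay above the background of 43.8%, and in the other comparisons it lay below. Whether these shares differ from the background was not tested. An exact permutation test of 3 against 3 libraries cannot give a p under 0.1, and the calls come from the edgeR model over all genes.

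A list of 26 ribonucleases, helicases and adaptors that work with the exosome was examined beside the subunits. With shDDX41 #1, 15 of 26 passed (8 higher, 7 lower) with a median log2 fold change of -0.05, and with shDDX41 #2, 4 of 26 passed (1 higher, 3 lower) with a median of -0.10. Between the hairpins 11 passed (8 higher, 3 lower with shDDX41 #1). These were 57.7%, 15.4% and 42.3% of the list, beside 47.8%, 25.0% and 48.8% of all genes, so with shDDX41 #2 and between the hairpins the share was below the background. Upper quartile factors left 4 instead of 7 lower with shDDX41 #1. Without library D of shDDX41 #1, 8 instead of 3 were lower and 3 instead of 1 higher with shDDX41 #2.

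DIS3, the nuclear ribonuclease at the exit of the barrel, was at 213 to 234 CPM in the controls, 203 to 211 CPM with shDDX41 #1 and 197 to 202 CPM with shDDX41 #2. Neither change passed (-0.09, adjusted p = 0.229, and -0.15, adjusted p = 0.0853). DIS3L, its cytosolic counterpart, was at 51.8 to 56.8 CPM in sh-Control and 38.8 to 50.2 CPM with shDDX41 #1, a log2 fold change of -0.26 (adjusted p = 0.0204) that was lost without sh-Control B or shDDX41 #1 D (adjusted p = 0.0852 and 0.0841). With shDDX41 #2 it was -0.08 (adjusted p = 0.554). MTREX, the nuclear helicase, was at 186 to 199 CPM in sh-Control and 162 to 176 CPM with shDDX41 #1, a change of -0.17 (adjusted p = 0.0342) that was lost in 9 of 19 alternatives, and with shDDX41 #2 it was -0.04 (adjusted p = 0.644). NOP53, an adaptor that brings MTREX to the maturing large ribosomal subunit, was the only partner higher with both hairpins, at 386 to 491 CPM in the controls, 632 to 864 CPM with shDDX41 #1 and 569 to 592 CPM with shDDX41 #2. Its log2 fold changes were 0.69 (adjusted p = 1.20e-04) and 0.40 (adjusted p = 0.0146). The second call was lost without sh-Control B, shDDX41 #2 B or shDDX41 #2 D (adjusted p = 0.0694, 0.0543 and 0.0542).

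ZCCHC7, a zinc-knuckle protein of the nuclear polyadenylation complex that marks RNA for the exosome, moved in opposite directions. It was at 27.2 to 30.8 CPM in the controls, 38.6 to 40.5 CPM with shDDX41 #1 and 15.8 to 19.7 CPM with shDDX41 #2, with no overlap between groups. The log2 fold changes were 0.44 (adjusted p = 6.64e-04) and -0.71 (adjusted p = 6.19e-05), and the hairpins differed by 1.15 (adjusted p = 1.23e-07). TENT4B, a poly(A) polymerase of the same complex, was at 0.04 with shDDX41 #1 (adjusted p = 0.714) and -0.32 with shDDX41 #2 (adjusted p = 0.00846), and TENT4A, its paralog, at -0.55 (adjusted p = 9.80e-04) and -0.28 (adjusted p = 0.0726) on the log2 scale. NCBP1, the large subunit of the nuclear cap-binding complex, was at 93.6 to 99.1 CPM with shDDX41 #1 beside 123 to 138 CPM with sh-Control (log2 fold change -0.45, adjusted p = 5.39e-05), and with shDDX41 #2 it was -0.08 (adjusted p = 0.397). SKIC2, the helicase of the cytosolic Ski complex, was at 74.5 to 77.0 CPM in the controls, 56.9 to 68.1 CPM with shDDX41 #1 and 82.4 to 91.0 CPM with shDDX41 #2. The log2 fold changes were -0.27 (adjusted p = 0.00698) and 0.20 (adjusted p = 0.0572), and the hairpins differed by -0.47 (adjusted p = 9.52e-05). Its scaffold SKIC3, named after its values were seen, was at -0.25 (adjusted p = 0.00702) and 0.19 (adjusted p = 0.0501). With shDDX41 #2, SKIC2 passed in 8 and SKIC3 in 10 of the 19 alternatives. WDR74, also named after its values were seen, acts with MTREX in large-subunit maturation and was at 0.40 (adjusted p = 4.78e-04) and -0.29 (adjusted p = 0.0122, and 0.0568 without shDDX41 #2 B).

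**Figure D4:**
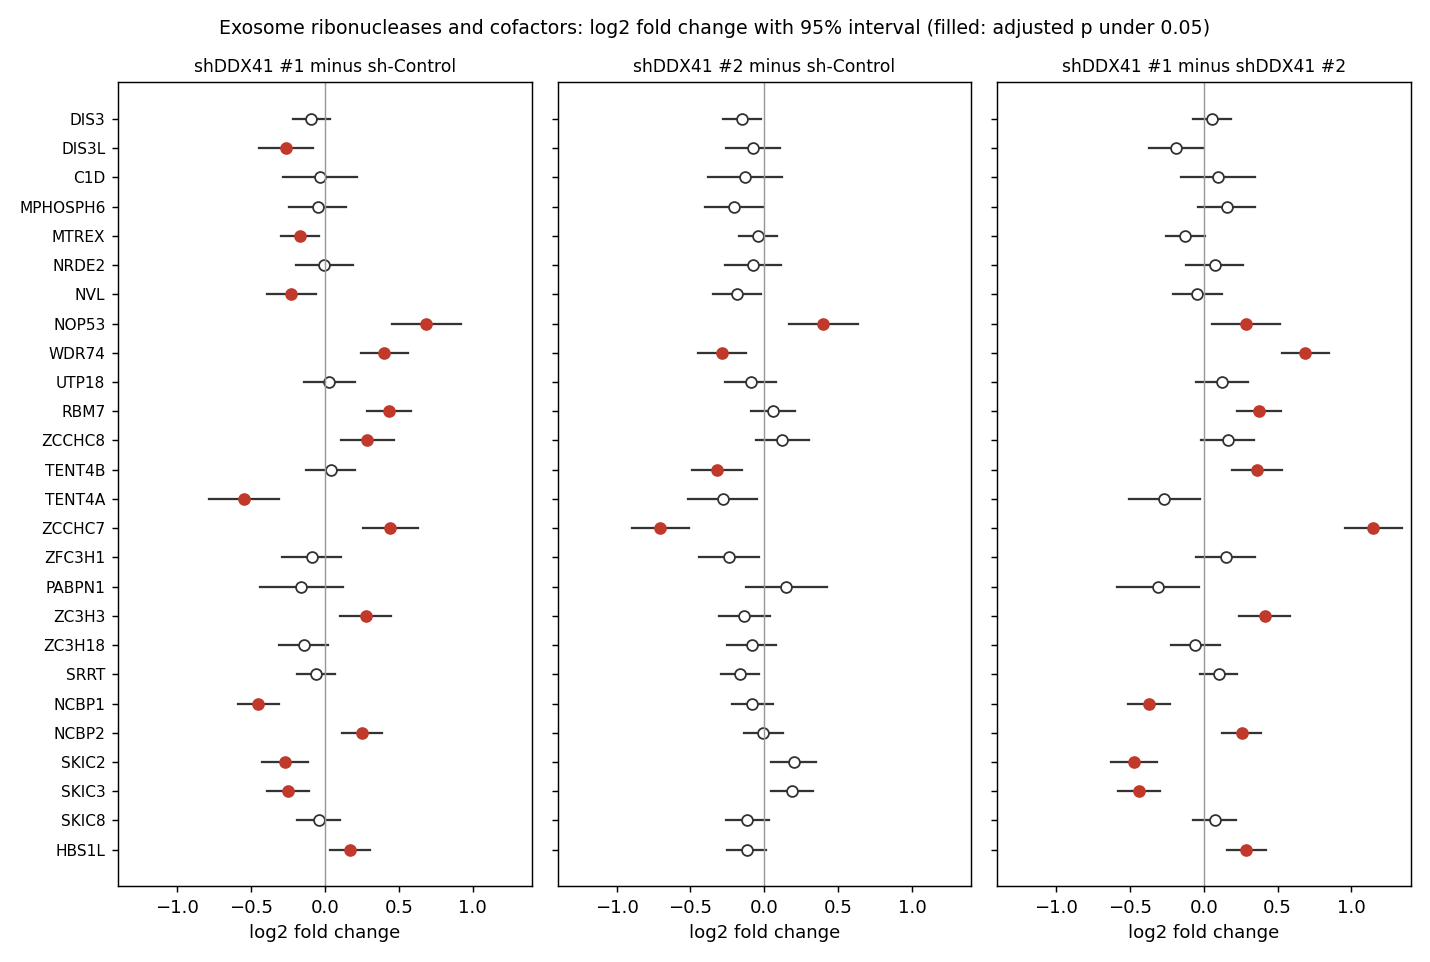
Log2 fold change (x axis) of the 26 exosome partners (y axis) in the 3 comparisons, with 95% intervals. Filled points have an adjusted p under 0.05. ZCCHC7 stands at 0.44 with shDDX41 #1, -0.71 with shDDX41 #2 and 1.15 between the hairpins.

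Values of 3 other gene lists are given beside the exosome subunits, and their part in the members' changes was not tested. The background is again 47.8% of all genes with shDDX41 #1 and 25.0% with shDDX41 #2. All 15 genes on a list of S-phase genes passed with shDDX41 #1, each of them lower, with a median of -0.90 on the log2 scale, and 3 of 15 (20.0%) were lower with shDDX41 #2 (median -0.08). RRM2, a subunit of ribonucleotide reductase, and the cyclin CCNE2 are named for shDDX41 #1 by their small adjusted p (-1.63 and -1.67), in which CCNE2 tied with CDC45 (-1.44), and the replication factors MCM6 and CDC45 for shDDX41 #2 (-0.98 and -0.26). Of 20 genes of ribosomal RNA processing, 11 (55.0%) passed with shDDX41 #1 (5 higher, 6 lower, median 0.01) and 14 (70.0%) were lower with shDDX41 #2 (median -0.26). DKC1 and TBL3 led the first comparison (-1.02 and -0.64) and DDX21 and NOP56 the second (-0.45 and -0.38). Of 30 genes of other RNA decay routes, 17 (56.7%) passed with shDDX41 #1 (5 higher, 12 lower, median -0.12) and 4 (13.3%) with shDDX41 #2 (1 higher, 3 lower, median 0.04). Among these the decapping cofactor DCP1B was at 1.20 and the deadenylase CNOT6 at -0.68 with shDDX41 #1, and TOB2 and CNOT9, which act with the deadenylase complex, at -0.58 and -0.31 with shDDX41 #2. The adjusted p-values of these 12 genes in the comparison named ran from 1.65e-09 to 0.0137.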

How the data were processed

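The authors sequenced RNA of sorted MOLM13 cells and deposited unnormalized counts per gene in 1 table of 30017 genes with 1 column for each of the 9 libraries. Submitters' notes name FastQC 0.11.7, HISAT2 2.0.5 and featureCounts 1.5.2 and the builds hg38 and mm10, without their roles. The annotation and strand setting were not given in the sources used here. The labels name a stranded poly(A) kit and the methods an unstranded kit of that family. Groups were taken from the labels.

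Counts were analysed with edgeR 4.0.16 in R 4.3.3. Genes were kept by filterByExpr (minimum count 10), libraries were scaled by TMM, and a quasi-likelihood model was fitted to all 9 libraries, with 3 two-sided contrasts adjusted by Benjamini-Hochberg within each. SE is the log2 fold change divided by the square root of F. Scripts were tested on simulated data. Exon lengths and gene positions came from GENCODE 29 (GRCh38) and promoters from RefSeq. Depth was 16385238 to 20510032 counts per library, and the biological coefficient of variation was 0.0768. Members, gene lists and motifs were chosen with earlier results of these data known. All 10 members, DDX41, DIS3, DIS3L, MTREX and SKIC2 were named whatever their result, as were partners called in the same direction with both hairpins or among the 3 largest changes with a hairpin. The result of 1 marker gene is not reported here. From each other list, the 2 called genes with the smallest adjusted p per hairpin were named. Correlations between members over the 9 libraries had been planned as a description and are not given, since the libraries fall into 3 groups.

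The alternatives were DESeq2 size factors, upper quartile factors, library size only, DESeq2 1.42.0 with its Wald test, limma 3.58.1 with voom, no filter, a minimum of 10 counts in each library, a fit to the 6 libraries of a comparison, a block for the replicate letter, an adjusted p under 0.01, and leaving out each library.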

Additional observations from a re-analysis of the deposited data

Results flagged for a closer look

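The change with shDDX41 #1 differed from the change with shDDX41 #2 in 5 exosome subunits, by the edgeR test of the difference itself (first hairpin minus second, log2 scale). The differences were -0.38 for EXOSC1, 0.38 for EXOSC4, 0.35 for EXOSC7, -0.41 for EXOSC8 and 0.42 for EXOSC10, with adjusted p-values from 2.68e-04 to 0.00625. The share of all tested genes that differed in this way was 48.8%, so the members' share was near the background. The direct comparison of the hairpins does not use the sh-Control libraries' levels. All 5 differences passed in each of the 19 alternatives.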

How the results depend on the processing

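Of 570 checks of the members' log2 fold changes (10 members, 3 comparisons, 19 alternatives), 533 kept direction and side of the threshold, 22 lost a call, 7 gained one and 8 changed sign. The calls of EXOSC2, EXOSC8 and EXOSC10 with both hairpins and of EXOSC4 with shDDX41 #2 held in all 19. The number of members lower with shDDX41 #1 was 3 instead of 6 with upper quartile factors, and 3 to 7 with 1 library left out (3 without shDDX41 #1 A). The number higher with that hairpin was 0 instead of 2 at an adjusted p under 0.01 (2 had an unadjusted p under 0.05) and 0 to 2 with 1 library left out (0 without sh-Control A). Over all genes, 1670 instead of 3174 were called with shDDX41 #2 at an adjusted p under 0.01, and 2054 to 4248 with 1 library left out (2054 without shDDX41 #2 B). Upper quartile factors moved the share of higher calls with shDDX41 #1 from 49.5% to 61.1% and the median of all genes from 0.01 to 0.09. Signs changed only for values near 0. EXOSC4 with shDDX41 #1 was 0.066 with upper quartile factors, 0.000529 with at least 10 counts in every library, and -0.11 to 0.068 with 1 library left out. EXOSC7 with shDDX41 #2 was -0.10 to 0.044 and EXOSC2 between the hairpins -0.092 to 7.02e-05 with 1 library left out. The cause of these changes was not tested. Between sh-Control and shDDX41 #1, the deviations of same-letter libraries correlated weakly, at 0.073 (A), 0.158 (B) and 0.243 (D). Different-letter pairs over all groups ran from -0.184 to 0.066, so the A pair was near the highest of them. Deviations were taken from the mean of the 3 libraries of a group, so the values of different pairs depend on each other. Same-letter pairs with a shDDX41 #2 library ran from -0.057 to 0.023. The value was over 0.1 in 2 of 9 same-letter and 0 of 18 different-letter pairs. The main fit had no term for the letter, so it left out this pairing. With the letter as a replicate block, 7 members were lower and 2 higher with shDDX41 #1, 5 and 0 with shDDX41 #2, and 2 and 3 between the hairpins, and 6351, 3570 and 6503 genes were called in all. The member gained under the block was EXOSC3 with shDDX41 #1 (-0.18, adjusted p = 0.0376). Where 1 library was left out, the group with 2 libraries shared the spread of the others.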
